A study of Mus musculus with 2 samples.

Results

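The unfolded protein response genes described here are 10 genes found by symbol among the 23284 gene symbols of both libraries: the stress sensors Eif2ak3, Ern1 and Atf6, the transcription factors Atf4 and Xbp1, and the ATF4-CHOP branch targets Ddit3, Ppp1r15a, Trib3, Chac1 and Asns. The libraries were made from sorted leukemic stem cells (LSCs) of mice with a BCR-ABL-driven form of chronic myeloid leukemia (CML), 1 WT and 1 STAP-1 KO RNA-seq library. The STAP-1 KO mice were on the C57BL/6J background, and WT mice are described in the study as C57BL/6. In both groups, LSK cells (lineage-negative, Sca-1-positive and c-Kit-positive) of WT or STAP-1 KO donors carried human BCR-ABL and green fluorescent protein (GFP) from a retrovirus and were given to lethally irradiated C57BL/6SJL recipients together with C57BL/6SJL bone marrow. GFP+ CD45.2+ LSK cells were sorted at day 11 after the first transplantation, and mice of 8 to 14 weeks were used in the study. STAP-1 KO cells carry a targeted disruption of the gene for STAP-1, an adapter protein. How many recipients went into each library is not given in the sources used here.

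Proteins that misfold in the endoplasmic reticulum (ER) are sensed by a set of ER membrane proteins. PERK, the product of Eif2ak3, phosphorylates the initiation factor eIF2, which slows translation in general and favors translation of the ATF4 mRNA. ATF4 then activates genes of amino acid supply and the gene Ddit3, which encodes the death-linked factor CHOP. IRE1, the product of Ern1, removes a short intron from the Xbp1 mRNA, and ATF6 is cut in the Golgi to release a transcription factor that activates ER chaperone genes. Other kinases feed into eIF2 and ATF4 as well, among them the amino acid sensor GCN2, encoded by Eif2ak4. Since ATF4, XBP1 and ATF6 are controlled by translation, splicing and cleavage, mRNA levels of a whole gene do not measure their activity.

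The values are FPKM, which are read counts scaled by transcript length and by library size, so that levels can be compared between genes per length. Ratios are log2((STAP-1 KO + 0.1)/(WT + 0.1)), in which a negative value means a lower level in STAP-1 KO cells. Since each genotype has 1 library, differences could not be checked against replicates and no p-values were computed. The steps between low values gave effective depths of 7496000 reads for WT and 10466000 for STAP-1 KO, and 95% counting intervals (exact binomial for ratios, exact Poisson for levels) were computed from them. The intervals cover counting error only, not the spread between mice or library preparations. The targeted gene matched its labels, with Stap1 at 61.95 FPKM in WT cells and 0.309 FPKM in STAP-1 KO cells. Of the LSK markers, Kit had 468 and 30.1 FPKM, Ly6a, which encodes Sca-1, 285 and 106 FPKM, Slamf1 3.39 and 8.67 FPKM, and Procr 2.98 and 5.45 FPKM. Kit and Ly6a, the markers used for sorting, were thus detected in both libraries but at least 2-fold lower in STAP-1 KO cells.

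Short stretches of promoter are shown because ATF4 acts through a defined DNA element, and they show which of these genes carry its letters near their start. RefSeq promoters on GRCm38.p6, from 250 bases before to 50 bases after a gene start, were found for 9 of the 10 genes, with none for Atf6. The core letters TGATGNAA of the C/EBP-ATF response element were found on either strand in the promoters of Chac1, Trib3 and Asns. These letters were present in 3.97% of all 32851 promoters of this length. The cAMP response element TGACGTCA was found in the promoter of Ppp1r15a and in 1.79% of all promoters. Neither the ER stress response element (CCAAT and CCACG with 9 letters between them, 0.119% of promoters) nor the XBP1 and ATF6 element TGACGTGG (0.676%) was found in the 9 promoters on either strand, which says only that these letters are not in these windows. The stretches below are written 5′ to 3′ on the strand of the gene, with the matched letters in capitals.
Chac1 (chr2:119351038-119351067, plus strand): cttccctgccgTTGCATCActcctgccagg
Trib3 (chr2:152344028-152344057, minus strand): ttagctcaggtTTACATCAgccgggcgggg
Asns (chr6:7693214-7693243, minus strand): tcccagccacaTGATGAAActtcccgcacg
Ppp1r15a (chr7:45526262-45526291, minus strand): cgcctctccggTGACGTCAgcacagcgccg
Counted from the RefSeq start, the first matched base was at -193 in Chac1, -23 in Asns and -12 in Ppp1r15a, and it was base 15 of the transcript in Trib3. None of the 4 sets of letters contains another. In GENCODE M21 the Asns match falls inside the annotated gene, which begins farther upstream, and the others lie before the annotated gene.

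All 3 sensor mRNAs were lower in STAP-1 KO cells by at least 2-fold, while 4 of the 5 ATF4-CHOP branch targets stayed below that cut-off. This holds for the deposited values: when ratios were corrected for the length and GC content of transcripts, as given further on, Atf6 (-0.68) was no longer past the cut-off and Ddit3 (-1.30) was, which made it 2 of 3 sensors and 2 of 5 targets. In all, 4 of the 10 genes were at least 2-fold lower and none was at least 2-fold higher. Among the 12507 genes with at least 0.1 FPKM in both libraries, 22.9% were at least 2-fold lower and 12.3% at least 2-fold higher. Counted in either direction this was 4 of the 10 genes beside 35.2% of all genes, a share near the background. The fourth gene was Ppp1r15a, the eIF2 phosphatase subunit that ends the PERK response. Atf4 itself lay on the other side, with a higher level in STAP-1 KO cells. Its log2 ratio was 0.63 as deposited, 0.39 with that correction and 0.20 with a correction for length alone. In bulk samples, fewer cells of a type and less RNA per cell cannot be told apart.

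**Figure D1:**
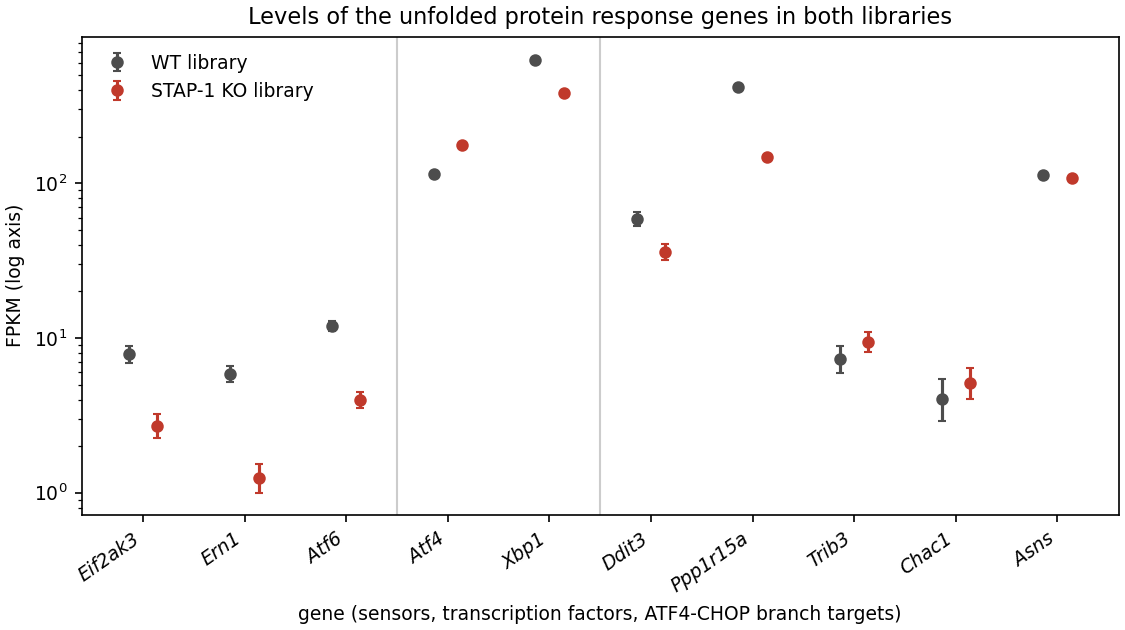
FPKM (log axis) of the 10 genes in WT cells (grey) and STAP-1 KO cells (red), 1 point per library with its 95% exact Poisson interval of the estimated reads. The 3 sensors lie below 13 FPKM in both libraries and are lower in STAP-1 KO cells, and Xbp1 is the highest gene in both.

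The sensor mRNAs were in the lower part of the 10 genes by level in both libraries. Eif2ak3, on chromosome 6 from 70844515 to 70905245 on the plus strand of GRCm38, had 7.87 FPKM in WT cells (95% counting interval 6.93 to 8.90) and 2.72 FPKM in STAP-1 KO cells (2.26 to 3.24). Its log2 ratio was -1.50 (95% counting interval -1.86 to -1.22). Ern1, on chromosome 11 from 106394650 to 106487852 on the minus strand, had 5.84 FPKM (5.19 to 6.55) and 1.24 FPKM (0.996 to 1.53). Its log2 ratio of -2.15 (-2.59 to -1.88) was the lowest of the 10 as deposited, and the single one past a 4-fold cut-off. With the correction for length and GC content it was -1.15, no longer past 4-fold. Ppp1r15a (-1.43), Ddit3 (-1.30) and Eif2ak3 (-1.20) were then lower. Atf6, on chromosome 1 from 170704674 to 170867771 on the minus strand, had 11.97 FPKM (11.1 to 12.9) and 3.98 FPKM (3.53 to 4.46), a log2 ratio of -1.57 (-1.79 to -1.39), or -0.68 and under the cut-off with the correction. As deposited, the counting intervals of the Eif2ak3 and Atf6 ratios overlapped, so that a difference between these sensors was not detectable at this depth. The interval of the deposited Ern1 ratio lay below that of Atf6. These values rest on about 254, 295 and 631 estimated reads in WT cells and 123, 87.6 and 293 estimated reads in STAP-1 KO cells for Eif2ak3, Ern1 and Atf6.

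The transcription factor genes that act below PERK and IRE1 were far more abundant than their sensors and differed from each other in direction. Atf4, on chromosome 15 from 80255184 to 80257541 on the plus strand, was at 114 FPKM in WT cells and 177 FPKM in STAP-1 KO cells. Its log2 ratio of 0.63 (0.54 to 0.72) was below the cut-off and was the highest of the 10 genes. Xbp1, on chromosome 11 from 5520659 to 5525893 on the plus strand, was at 627 and 381 FPKM, a log2 ratio of -0.72 (-0.76 to -0.67) that was also below the cut-off. Xbp1 ranked 97th of all genes by level in WT cells and 203rd in STAP-1 KO cells. The values of a whole gene do not separate the spliced from the unspliced Xbp1 mRNA.

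The ratio between a factor and its sensor within 1 library does not depend on how the libraries were scaled, but these libraries also differed with transcript length, which it does not remove. Atf4 mRNA was 14.5 times that of Eif2ak3 in WT cells and 65.0 times in STAP-1 KO cells. For Xbp1 and Ern1 the corresponding values were 107 and 307. As deposited, the log2 ratio of factor to sensor was higher by 2.16 for Atf4 and by 1.52 for Xbp1 in STAP-1 KO cells. With the correction for length and GC content, these differences were 1.58 and 0.27.

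Among the ATF4-CHOP branch targets, the feedback gene Ppp1r15a and the death-linked gene Ddit3 had the lowest ratios. Ppp1r15a (GADD34), on chromosome 7 from 45522916 to 45526268 on the minus strand, had 417 FPKM in WT cells and 148 FPKM in STAP-1 KO cells. Its log2 ratio of -1.49 (-1.55 to -1.44) was past the cut-off and rests on about 8115 and 4040 estimated reads. Ddit3, on chromosome 10 from 127290774 to 127296288 on the plus strand, was at 58.95 FPKM (52.8 to 65.6) and 36.2 FPKM (32.1 to 40.6), a log2 ratio of -0.70 (-0.94 to -0.47). Its level was thus lower beyond the counting error but, as deposited, not by 2-fold.

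Trib3, which encodes a pseudokinase that binds ATF4 and AKT, lies on chromosome 2 from 152337422 to 152344032 on the minus strand and had 7.31 FPKM (5.94 to 8.90) in WT cells and 9.38 FPKM (8.06 to 10.9) in STAP-1 KO cells. Its log2 ratio was 0.36 (-0.002 to 0.73). Chac1, which encodes an enzyme that degrades glutathione, lies on the plus strand of chromosome 2 from 119351229 to 119354381 and had 4.02 FPKM (2.90 to 5.41) and 5.12 FPKM (4.04 to 6.40). It had the fewest reads of the 10 genes, about 42.9 and 76.7, and a log2 ratio of 0.34 (-0.21 to 0.92). Asns, which encodes asparagine synthetase, lies on chromosome 6 from 7675169 to 7693254 on the minus strand and had 113 and 108 FPKM, a log2 ratio of -0.06 (-0.16 to 0.03). As deposited, a difference of Trib3, Chac1 or Asns was not detectable at this depth, since each interval includes 0. The sign of Trib3 and Chac1 turned (-0.07 and -0.05) under a correction for length alone. The value of Asns was 0.039 with equal sums of FPKM, but -0.54 with the correction for length and GC content and -0.49 for length alone, both below its counting interval. Trib3, Chac1 and Asns are also the genes with a C/EBP-ATF core in the promoter stretches shown above. Only 250 bases before to 50 bases after a RefSeq start were searched. Any such core of Ddit3 or Ppp1r15a outside this window would not be seen, and a link between the core and the ratios was not tested.

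Set against Atf4, the targets Ppp1r15a, Ddit3 and Asns were lower in STAP-1 KO cells beyond the counting error. Ppp1r15a was at 365% of the Atf4 level in WT cells and at 83.9% in STAP-1 KO cells, and Ddit3 at 51.6% and 20.5%. Asns was at 98.7% and 61.0%, Trib3 at 6.39% and 5.31% and Chac1 at 3.51% and 2.90%. On the log2 scale the differences were -2.12 for Ppp1r15a, -1.33 for Ddit3, -0.69 for Asns, -0.27 for Trib3 and -0.28 for Chac1. The last values were not distinguishable from 0 at this depth, since the intervals of the Trib3 and Chac1 ratios include that of Atf4, and they were -0.11 and -0.14 with the correction. Trib3, a known target of CHOP as well as of ATF4, was 0.124 of the Ddit3 level in WT cells and 0.259 in STAP-1 KO cells.

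The order of the levels differed in part between the libraries. In the WT library it ran from Xbp1, Ppp1r15a, Atf4, Asns and Ddit3 to Atf6, Eif2ak3, Trib3, Ern1 and Chac1. The counting intervals of Atf4 and Asns overlapped, as did those of each neighboring pair from Eif2ak3 to Chac1. In the STAP-1 KO library Atf4 lay above Ppp1r15a, and Trib3 and Chac1 lay above all 3 sensors, with only the neighbors Chac1 and Atf6 overlapping. Ern1 was the lowest of the 10 genes there.

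**Figure D2:**
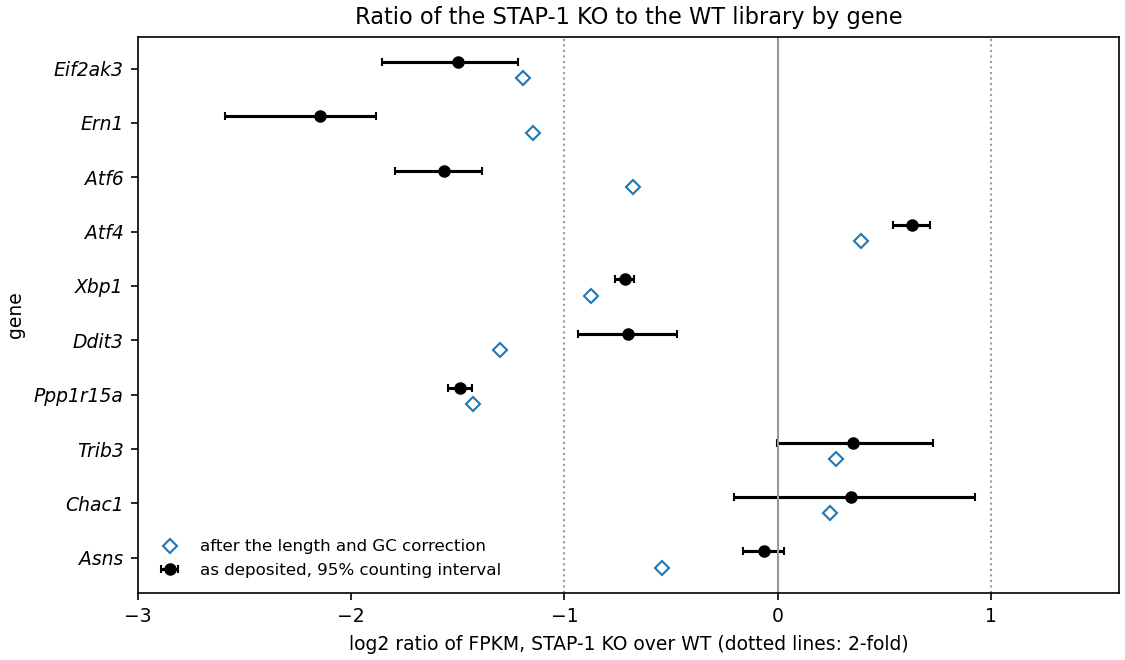
Log2 ratio of FPKM (STAP-1 KO over WT) of the 10 genes, with black points and 95% counting intervals for the deposited values and blue diamonds corrected for the length and GC content of transcripts. Dotted lines mark a 2-fold difference, and Atf6 and Ddit3 are the genes that lie on the other side of it under the correction, at -0.68 and -1.30.

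Sensors and targets differ in the length of their mRNA, and the ratio of these libraries varied with length. The longest annotated transcripts have 4513 bases for Eif2ak3, 6946 for Ern1 and 7246 for Atf6, but 969 to 2809 bases for the 5 targets. Over the 10865 genes that averaged at least 1 FPKM and have an annotated length, Spearman's rank correlation of the log2 ratio with length was -0.37, a description across genes that share a pair of libraries. Among the 543 genes of like length to Ern1 and Atf6 (6378 to 7751 bases), 48.98% of those with at least 0.1 FPKM in both libraries were at least 2-fold lower and the median log2 ratio was -0.95. Among the 544 genes of like length to Eif2ak3 (4262 to 4582 bases) the median was -0.26 and 28.4% were at least 2-fold lower. For Ppp1r15a, among 541 genes of 2782 to 2993 bases, the median was 0.12 and 14.2% were at least 2-fold lower. Genes of the lengths of Atf4, Asns and Trib3 had a median of 0.42, and those of the length of Ddit3 a median of 0.52. Over all genes in the length classes of the 3 sensors, 38.7% were at least 2-fold lower.

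The difference between sensors and targets became smaller when this was taken into account. As deposited, the median log2 ratio was -1.57 for the 3 sensors and -0.06 for the 5 targets, a difference of 1.501, beside -0.04 over the 10974 genes that averaged at least 1 FPKM. After each ratio was set against genes of like length and then of like GC content, the medians were -1.15 and -0.54 and the difference was 0.61. Eif2ak3 (-1.20), Ern1 (-1.15) and Ppp1r15a (-1.43) stayed past the cut-off, Atf6 (-0.68) did not, and Ddit3 (-1.30) came past it. With the correction 4 of the 10 genes were at least 2-fold lower, beside 19.0% of 12360 genes, and none at least 2-fold higher, beside 11.6%. The corrected value of Atf4 was 0.39, of Xbp1 -0.88, of Asns -0.54, of Trib3 0.28 and of Chac1 0.25.

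**Figure D3:**
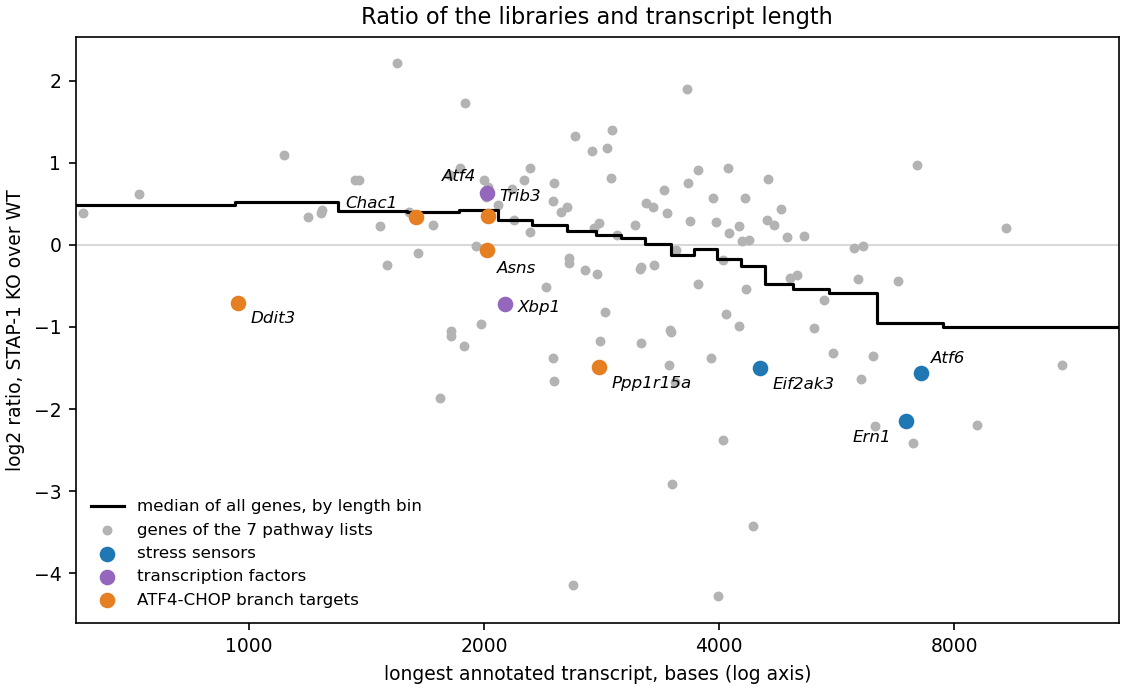
Log2 ratio (STAP-1 KO over WT) against the longest annotated transcript in bases (log axis) for the 10 genes (colored by role), for genes of the 7 pathway lists (grey) and as the median of all genes in length bins (black line). The line falls from 0.48 in the shortest bin to -0.998 in the longest, and the 3 sensors lie below it at the long end while among shorter genes Ddit3, Xbp1, Ppp1r15a and Asns lie clearly below it, Trib3 and Chac1 slightly below it and Atf4 above it.

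Some of these genes may share reads with other annotated genes. The 3′ end of Ddit3 overlaps Mars on the opposite strand by 68 bases, and Mars had 66.9 FPKM in WT cells and 101 FPKM in STAP-1 KO cells. GENCODE M21 also lists a second Ddit3 gene model inside the first. Ppp1r15a overlaps Tulp2 on the opposite strand by 717 bases, where Tulp2 had 0.773 and 0.123 FPKM. Counting by strand is not stated, so reads in these overlaps cannot be told apart.

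The rest of the pathway was taken from 7 lists, described by their medians over members that averaged at least 1 FPKM and by their counts past the cut-off, to be read beside the 22.9% of all genes that were at least 2-fold lower and the 12.3% at least 2-fold higher. In the machinery that carries the signal from the eIF2 kinases, 18 genes had a median log2 ratio of 0.39, with 12 above 0, beside 48.3% of all genes above 0, and a median of 0.22 after the correction. Of these genes 3 were at least 2-fold lower and none at least 2-fold higher. The subunit genes Eif2s2 (26.2 and 50.2 FPKM) and Eif2b3 (35.4 and 66.9 FPKM) had log2 ratios of 0.93 and 0.92. Ppp1r15b, the constitutive counterpart of Ppp1r15a, was lower, with 35.97 and 14.4 FPKM (log2 ratio -1.31, and -0.73 after the correction). The level of Ppp1r15a was 11.6 times that of Ppp1r15b in WT cells and 10.3 times in STAP-1 KO cells, a log2 difference of -0.17, and -0.69 with the correction. Gcn1l1, whose product activates GCN2 on stalled ribosomes, had 14.2 and 3.01 FPKM, so that its log2 ratio was -2.20, and -0.86 with the correction.

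The other eIF2 kinases lay on both sides of 0. Eif2ak4 (GCN2) had 9.78 FPKM in WT cells and 4.80 FPKM in STAP-1 KO cells, so that its log2 ratio was -1.01, and -0.49 with the correction. Eif2ak1, the heme-regulated kinase, had 75.4 and 51.9 FPKM, and Eif2ak2, the kinase activated by double-stranded RNA, had 5.83 and 8.68 FPKM, both below the cut-off. Eif2ak1 was the most abundant of the 4 kinase mRNAs in both libraries.

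Further ATF4 targets were divided by role into genes of amino acid supply and stress factor genes. For amino acid supply, 18 genes averaged at least 1 FPKM, and their median log2 ratio was 0.69, with 12 above 0, and 0.85 after the correction. Of the 21 genes listed 6 were at least 2-fold higher and 4 at least 2-fold lower. Phgdh, the first enzyme of serine synthesis, had 37.6 and 124 FPKM, and Gpt2, a mitochondrial alanine aminotransferase, had 1.57 and 6.12 FPKM. The transporter genes Slc7a5 (147 and 46.0 FPKM), for large neutral amino acids, and Slc6a9 (25.6 and 3.30 FPKM), for glycine, were lower. The 12 stress factor genes had a median of -0.60, with 4 above 0, and -0.43 after the correction. This median depended on the filter, with -0.18 over all listed genes and -0.96 at a mean of at least 5 FPKM. Here 5 of the 14 that could be compared were at least 2-fold lower and 1 was higher. Stc2, a secreted glycoprotein gene, had 38.1 and 1.87 FPKM, Ndrg1 125.7 and 24.1 FPKM and Ddit4, an inhibitor of mTORC1, 10.8 and 2.91 FPKM. The single gene that was higher was Gdf15, a stress cytokine, with 1.22 and 6.00 FPKM, and Fgf21 was listed at 0 FPKM in both libraries.

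Of the 6 genes linked to CHOP 5 had a log2 ratio below 0, and 4 after the correction, where Bcl2l11 turned from -0.37 to 0.11. They had a median log2 ratio of -0.74, 3 were at least 2-fold lower and none was higher, and the median was -0.82 after the correction. At a mean of at least 5 FPKM, which left Ero1l and Bbc3, it was -2.27. Ero1l, the ER thiol oxidase, had 996 FPKM in WT cells and 92.5 FPKM in STAP-1 KO cells, a log2 ratio of -3.43. The death receptor gene Tnfrsf10b (2.56 and 1.06 FPKM) and the BH3-only gene Bbc3 (10.2 and 4.65 FPKM) were also past the cut-off, whereas Bcl2l11 (3.18 and 2.43 FPKM) was not.

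Few chaperone genes of the ATF6 branch were past the cut-off. Their median log2 ratio was 0.20 over 17 genes, and 0.03 after the correction, and of the 18 listed 1 was at least 2-fold lower and 2 were at least 2-fold higher. The main ER chaperone gene Hspa5 (BiP) had 971 and 1186 FPKM, so that its level was 81.2 times that of Atf6 in WT cells and 298 times in STAP-1 KO cells, a log2 difference of 1.88, and 1.01 with the correction. Sdf2l1, an ER chaperone cofactor, had 141 and 299 FPKM, a log2 ratio of 1.09 that was under the cut-off after the correction (0.87). The degradation genes Sel1l (39.5 and 15.5 FPKM) and Syvn1 (26.0 and 14.4 FPKM) and the disulfide isomerase gene P4hb (987 and 559 FPKM) were lower, of which Sel1l alone passed the cut-off as deposited, and none did after the correction (Sel1l, -0.81).

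Genes of the XBP1 branch lay around 0 as a group. Over 29 genes of secretion and ER-associated degradation the median log2 ratio was 0.16, with 17 above 0, and it was -0.09 after the correction. None of the 30 listed was at least 2-fold higher and 6 were at least 2-fold lower, a share no larger than the 22.9% of all genes. Among the lower ones were Dnajb9 (36.9 and 11.6 FPKM), an ER co-chaperone, the degradation genes Edem1 (75.6 and 24.3 FPKM) and Edem3 (13.3 and 2.79 FPKM), and the vesicle coat gene Sec24d (36.7 and 14.1 FPKM). After the correction the log2 ratios of these were -2.22, -1.11, -1.73 and -1.27.

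Among 14 other regulators of the IRE1 and ATF6 pathways the median log2 ratio was -0.26, with 6 above 0, and 0.08 after the correction. Of the 16 listed 5 were at least 2-fold lower and none was higher. They included 3 genes for membrane-bound factors that are cut like ATF6, of which Creb3l1 and Creb3l2 had the lowest ratios of the list as deposited. Creb3l1 had 62.0 FPKM in WT cells and 3.43 FPKM in STAP-1 KO cells, Creb3l2 15.4 and 2.83 FPKM and Creb3 68.3 and 29.1 FPKM. After the correction the log2 ratios of Creb3l1, Creb3l2 and Creb3 were -3.91, -1.47 and -1.47. Tmbim6, which encodes an ER membrane protein that restrains IRE1, had 112 and 43.2 FPKM.

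**Figure D4:**
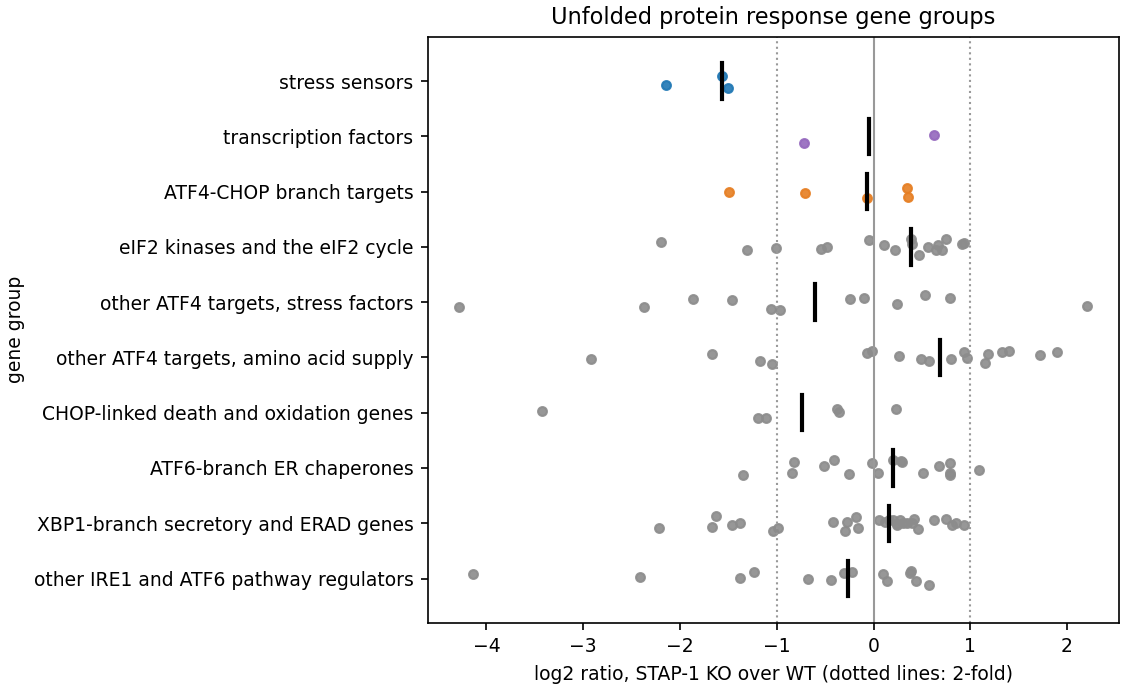
Log2 ratio (STAP-1 KO over WT) of single genes that averaged at least 1 FPKM, by group: the 3 groups of the 10 genes (colored) and the 7 pathway lists (grey), with black bars for medians and dotted lines at 2-fold. As deposited, the sensors are the only group with every gene past the 2-fold line on the lower side, and amino acid supply has the highest median, 0.69. With the correction for length and GC content 2 of the 3 sensors were past that line.

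Markers of other cell types differed between the libraries alongside these genes. All 12 mast cell and basophil markers were lower in STAP-1 KO cells, 11 of them by at least 2-fold, and their summed level was 52397 FPKM in WT cells and 5620 FPKM in STAP-1 KO cells. The examples named by rule were Cma1 (13924 and 1168 FPKM), Tpsb2 (7016 and 185 FPKM), Tpsab1 (430 and 8.74 FPKM) and Hdc (5629 and 330.2 FPKM). All 6 neutrophil primary granule markers in the files were at least 2-fold higher, with a sum of 565 and 4627 FPKM, among them Mpo (248 and 1973 FPKM). Eosinophil markers were mixed, with 3 of 8 at least 2-fold higher and 2 at least 2-fold lower. Their sum was 39.0 and 90.5 FPKM, but 36.9 and 28.8 FPKM without Prg2 (2.12 and 61.7 FPKM). Siglec5 (27.9 and 11.4 FPKM) and Ear2 (6.91 and 2.78 FPKM) were the lower genes, while Epx (1.02 and 8.62 FPKM) and Prg3 (0.360 and 2.84 FPKM) were higher and Ear1 was at 0 and 2.46 FPKM. For plasma cells, which have a high unfolded protein response, the 8 markers summed to 16.2 and 20.1 FPKM, and to 13.99 and 13.3 FPKM without Igj (2.18 and 6.81 FPKM), most of it from Tnfrsf13b (11.08 and 11.46 FPKM). Prdm1 (0.676 and 0.194 FPKM) was at least 2-fold lower, Irf4 (0.179 and 0.0427 FPKM) and Sdc1 (1.87 and 1.41 FPKM) were below their WT values, Cd79a was at 0 and 0.171 FPKM, and Tnfrsf17 was listed at 0 FPKM in both libraries. The part of these cell types in the levels of the 10 genes was not tested.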

How the data were processed

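RNA-seq values of 1 WT and 1 STAP-1 KO library of sorted LSCs were used, grouped by the genotype in the labels. The authors prepared cDNA with a SMART-Seq low-input kit, mapped 75-base single-end reads to mm10 with TopHat 2.0.13 and Bowtie2 2.2.3, and deposited FPKM from Cuffnorm (Cufflinks 2.2.1). The gene annotation and the scaling between libraries are not given in the sources used here.

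Log2 ratios used a pseudocount of 0.1 FPKM, which understates differences of low genes. The cut-off was 2-fold without pseudocount, with at least 0.1 FPKM in both libraries. Symbols were matched to GENCODE M21 (GRCm38): 20919 as written, 1900 through an older symbol and 465 not. Depth was estimated from low FPKM values (below 0.3) of genes with 1 transcript. Of 322 WT and 397 STAP-1 KO values, 47.8% and 48.6% were whole reads to a tolerance of 0.01, where chance gives 2% for a depth fixed beforehand. The depth was chosen to make this share largest, so the share is not a test of it. Estimated reads use the longest transcript and assume this effective depth. The correction subtracted medians of 20 bins of length and then of GC content, over genes that averaged at least 1 FPKM.

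All 10 members were named, with up to 4 genes per list by the largest absolute ratio at a pseudocount of 1 FPKM and list genes at 0 FPKM in both libraries (Fgf21 and Tnfrsf17). Eif2ak1, Eif2ak2, Eif2ak4, Hspa5, Mars, Tulp2, Ear2, Siglec5, Prdm1, Irf4 and Cd79a were named after their values were seen. The members and lists were chosen with earlier results of these data known. Of the granule markers Azu1 was not analysed here. The steps ran in Python 3.11.15 with scipy 1.17.1, pandas 2.3.3, numpy 2.4.6 and matplotlib 3.10.9, and were tested on simulated data.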

Additional observations from a re-analysis of the deposited data

How the results depend on the processing

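Each genotype has 1 library, so an effect of the mice, the sort or the preparation cannot be told apart from that of the genotype, and no library could be left out. No paired analysis was possible because each group has 1 library. Equal sums of FPKM shifted log2 ratios by 0.10, and the other scalings by -0.004 to 0.04. Rescaling the libraries in these 4 ways left 4 members at least 2-fold lower and none at least 2-fold higher. On the deposited values, a 4-fold cut-off left 1 member lower (Ern1), and over all genes 1071 lower and 300 higher in place of 2860 and 1538. A 1.5-fold cut-off gave 6 lower members (Xbp1 and Ddit3 added) and 1 higher (Atf4), and 4101 lower and 3201 higher genes over all, and a floor of above 0 FPKM in at least 1 library gave 4032 and 2626. The sensor median of -1.57 became -1.38 at a pseudocount of 1 FPKM, -1.15 with the length and GC correction and -1.19 with length alone, which was added after seeing the data. The target median of -0.06 became 0.039 with equal sums of FPKM, -0.54 with both corrections, -0.49 with length alone and -0.38 without Chac1 (mean of at least 5 FPKM). Their difference of 1.501 became 0.61 with both corrections and 0.70 with length alone. With length alone 5 members were past the cut-off (Eif2ak3, Ern1, Xbp1, Ddit3 and Ppp1r15a), Trib3 (-0.07) and Chac1 (-0.05) changed sign, and Asns did so with equal sums of FPKM (0.039). Of 80 values of single members 58 stayed within the counting interval and 22 moved, and of 70 list medians 55 stayed and 15 moved.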
